A study of Mus musculus with 2 samples.

Results

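The 10 genes described here, chosen by name, carry fatty acids from the bloodstream into muscle and prepare them for use: Lpl, Gpihbp1 and Angptl4 at the capillary wall, Cd36, Slc27a1 and Slc27a4 at the membrane, Fabp3 and Fabp4 in the cytosol, and Acsl1 and Acsl6 at activation. They are 10 of the 55536 genes quantified in total RNA from the gastrocnemius, the large calf muscle, of 2 female mice, adults of 8 to 10 months. The strain of both was B6CASTF1/J, a cross of B6 and CAST, and no treatment is given for either. The labels' animal 3 is replicate 2 and animal 1 is replicate 1, with 1 library each. Both carry the same donor identifier in the labels but separate tissue samples, so that they are separate animals rests on the labels. They form a single group, so no test between groups exists, no p-value is given, and the spread between the libraries may be partly technical.

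Fatty acids reach muscle in part as triglyceride in circulating lipoproteins. Lipoprotein lipase cuts the triglyceride while anchored to the capillary wall, and the freed fatty acids pass the endothelium and the muscle membrane with the help of transporters. Inside the fibre they are bound by small carrier proteins and joined to coenzyme A, which holds them in the cell and commits them to oxidation or storage. Muscle that works for long periods draws much of its energy this way.

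Replicate 2 held 43301418 expected counts in genes and replicate 1 held 42605802. A count of 0 allows a level of up to 3 counts, which is 0.0693 CPM in replicate 2 and 0.0704 CPM in replicate 1 and covers counting error only. CPM are counts scaled to a common library total. Levels are given in TPM, which are also scaled for transcript length and so can be compared between genes. Values come from the deposited gene table unless the second quantification is named, a separate estimate made directly from the reads, per the deposited descriptions. The short noncoding 7SL RNA genes Rn7s1 and Rn7s2 together took 33.6% of all TPM in replicate 2 and 27.0% in replicate 1, which lowers every other TPM more in replicate 2. The tissue label was checked against fibre genes. Fast fibre genes such as Myh4 summed to 84371 TPM in replicate 2 and 95102 TPM in replicate 1, and slow fibre genes such as Myh7 to 2115 and 2010 TPM in the same order. The 6 genes listed as markers of other tissues, among them Alb and Nppa, reached at most 0.16 TPM in either animal.

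Of the 10 genes, 9 were detected, meaning at 1 TPM or more in both animals, and Angptl4 was not. By the same rule 9673 of all 22015 nuclear protein-coding genes were detected. Together the genes held 664 TPM in replicate 2 and 703 TPM in replicate 1, a mean of 684 ± 27.4 TPM (SD, n = 2). That is 0.153% of the TPM of nuclear protein-coding genes in replicate 2 and 0.146% in replicate 1. Fabp3 alone held 36.7% of the sum in both animals, and Lpl held 22.1% in replicate 2 and 22.0% in replicate 1. The order of mean level was Fabp3, Lpl, Acsl1, Cd36, Fabp4, Slc27a1, Gpihbp1, Acsl6, Slc27a4 and Angptl4. The ranges of neighbours in that order did not overlap between the animals, except for Acsl1 with Cd36 and Gpihbp1 with Acsl6. In the second quantification Acsl1 stood clear of Cd36, and only Gpihbp1 and Acsl6 still overlapped.

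**Figure D1:**
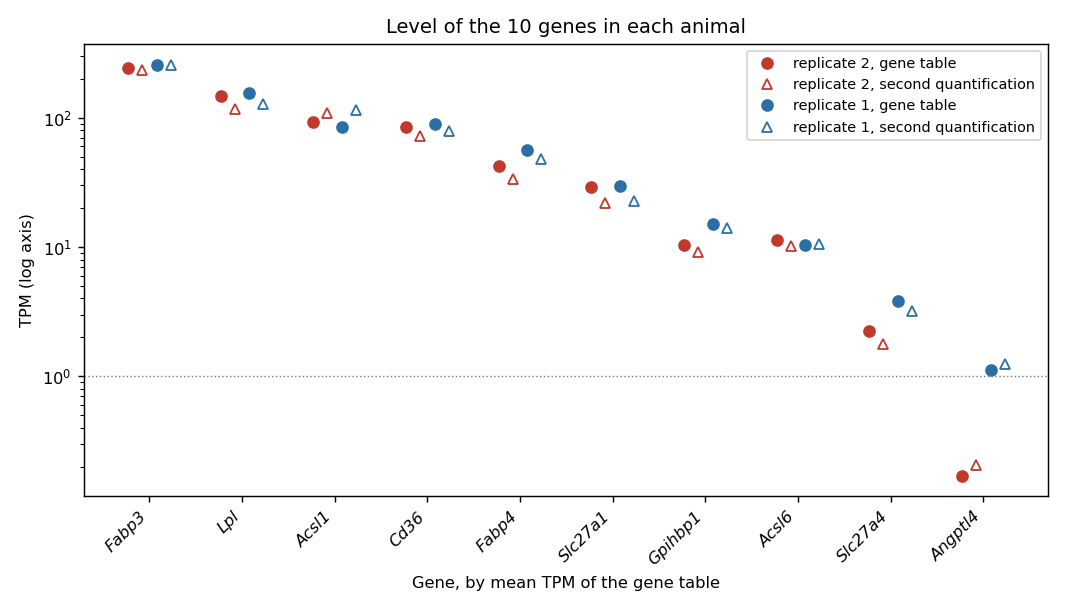
Level of each of the 10 genes in TPM on a log axis, with replicate 2 in red and replicate 1 in blue. Filled circles are the gene table, open triangles the second quantification, and the dotted line marks 1 TPM. Fabp3 lies near 250 TPM, and Angptl4 is the gene whose points fall on both sides of the line.

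At the capillary wall, the lipase had a higher level than its anchor, and its inhibitor was the lowest of the 10 genes. Lpl (ENSMUSG00000015568.16, chromosome 8, bases 68880491 to 68907448, plus strand, mm10) encodes lipoprotein lipase, made mainly by muscle fibres and adipocytes and moved to the capillary lumen. It had 147 TPM in replicate 2 and 154 TPM in replicate 1 (151 ± 5.59, SD, n = 2), from 16095 and 14900 expected counts. It ranked 353 among 22015 nuclear protein-coding genes by TPM. Its count was the highest of the 10 genes, on an effective length of 3414 bases in replicate 2, against 723 bases for Fabp3. Gpihbp1 (ENSMUSG00000022579.10, chromosome 15, 75596628 to 75599481, plus strand), the endothelial protein that carries the lipase across the capillary and holds it there, had 10.3 TPM in replicate 2 and 15.0 TPM in replicate 1 (12.7 ± 3.34, SD, n = 2). Lpl therefore stood 14.2-fold above Gpihbp1 in replicate 2 and 10.3-fold above it in replicate 1.

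Angptl4 (ENSMUSG00000002289.16, chromosome 17, 33773750 to 33781830, minus strand), a secreted inhibitor of the lipase that fasting and PPAR activation induce in many tissues, was near the limit of detection. It had 7 expected counts in replicate 2 and 38 in replicate 1, or 0.17 and 1.11 TPM in the same order (0.64 ± 0.665, SD, n = 2). The deposited credibility bounds of its TPM, 0.111 to 0.641 in replicate 2 and 0.748 to 1.94 in replicate 1, did not overlap. Few of those reads were assigned to the transcript that encodes the protein. Angptl4-201, the only protein-coding transcript of 4, had 0 expected counts in replicate 2 and 5.28 in replicate 1. The remainder went to a transcript annotated for nonsense-mediated decay and a processed one, and in replicate 1 also to one with a retained intron.

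Other genes of lipolysis were few and mostly low. Of 16 listed, 7 were detected. Lipc, Apoc2, Apoc3 and Apoa5, all made mainly in liver, had no count in either animal. Vldlr, a receptor that binds triglyceride-rich lipoproteins, had 27.9 TPM in replicate 2 and 32.9 TPM in replicate 1. Furin, a protease that cleaves and inactivates the lipase, had 20.8 TPM in replicate 2 and 25.7 TPM in replicate 1. Sel1l and Lmf1, which help the lipase fold and leave the endoplasmic reticulum, had 17.1 and 5.83 TPM in replicate 2, against 18.2 and 5.46 TPM in replicate 1.

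Among the membrane genes Cd36 was the highest, and Slc27a1 held most of its own family. Cd36 (ENSMUSG00000002944.15, chromosome 5, 17781690 to 17888801, minus strand), the scavenger receptor that takes up long-chain fatty acids in muscle, heart and fat, had 84.9 TPM in replicate 2 and 89.6 TPM in replicate 1 (87.3 ± 3.27, SD, n = 2). Slc27a1 (ENSMUSG00000031808.7, chromosome 8, 71568882 to 71587302, plus strand), a transport protein that also has acyl-CoA synthetase activity, had 29.2 TPM in replicate 2 and 29.5 TPM in replicate 1 (29.4 ± 0.212, SD, n = 2). Slc27a4 (ENSMUSG00000059316.2, chromosome 2, 29802634 to 29817522, plus strand), its relative, had 2.25 TPM in replicate 2 and 3.81 TPM in replicate 1 (3.03 ± 1.10, SD, n = 2). Slc27a1 exceeded Slc27a4 by 13.0-fold in replicate 2 and by 7.75-fold in replicate 1. Slc27a1 made up 91.9% of the TPM of the 6 Slc27a genes in replicate 2 and 87.3% in replicate 1. Slc27a2 and Slc27a5, known from liver, had no count, and Slc27a3 and Slc27a6 stayed at or below 0.47 TPM.

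Genes tied to the placing of Cd36 and to caveolae, the membrane pits in which it gathers, were all detected (7 of 7). Got2, the mitochondrial aspartate aminotransferase also known as a membrane fatty acid binding protein, had 168 TPM in replicate 2 and 176 TPM in replicate 1. Cavin1 and Cav1, which build caveolae, had 52.4 and 24.0 TPM in replicate 2, against 61.9 and 37.4 TPM in replicate 1. Zdhhc5, which palmitoylates Cd36 in mouse adipocytes, had 34.4 TPM in replicate 2 and 36.2 TPM in replicate 1. Cav2, a partner of Cav1, had 292 counts in replicate 2 and 442 in replicate 1, and Fyn, a kinase that binds Cd36, had 102 and 164.

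The cytosolic carriers were led by the muscle form. Fabp3 (ENSMUSG00000028773.8, chromosome 4, 130308595 to 130315463, plus strand), the heart and muscle fatty acid binding protein, had 244 TPM in replicate 2 and 258 TPM in replicate 1 (251 ± 9.85, SD, n = 2) and ranked 200 among nuclear protein-coding genes. Fabp4 (ENSMUSG00000062515.3, chromosome 3, 10204088 to 10208576, minus strand), the form of adipocytes and of capillary endothelium, had 42.5 TPM in replicate 2 and 55.9 TPM in replicate 1 (49.2 ± 9.44, SD, n = 2). Fabp3 exceeded Fabp4 by 5.74-fold in replicate 2 and by 4.62-fold in replicate 1. Fabp3 made up 84.5% of the summed TPM of 10 fatty acid binding protein genes in replicate 2 and 81.6% in replicate 1. Fabp5, the epidermal form, had 2.33 TPM in replicate 2 and 1.62 TPM in replicate 1. Of the other 7, Pmp2, the myelin form, had 0 counts in replicate 2 and 23 in replicate 1, and 6 had no count in either animal. Fabp3 overlaps Zcchc17 on the opposite strand, which had 854 counts in replicate 2 and 855 in replicate 1; the kit marks strand, but the setting used for counting is not given in the sources used here.

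Adipocyte genes were low beside Fabp4 and Lpl. All 8 adipocyte genes listed had counts, but they summed to 11.5 TPM in replicate 2 and 12.1 TPM in replicate 1, most of it Cfd. Adipoq, which defines fat cells, had 0.97 TPM in replicate 2 and 1.70 TPM in replicate 1. Fabp4 stood 3.71-fold above the summed adipocyte genes in replicate 2 and 4.60-fold above them in replicate 1. The 12 endothelial genes, all detected, summed to 81.1 TPM in replicate 2 and 105 TPM in replicate 1. Fabp4 per unit of that sum was 0.524 in replicate 2 and 0.532 in replicate 1, and Gpihbp1 per unit of it was 0.127 and 0.143 in the same order. In a bulk sample, fewer cells of a type and less RNA per cell cannot be told apart.

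Among the Acsl genes of activation, Acsl1 had the highest level. Acsl1 (ENSMUSG00000018796.13, chromosome 8, 46471037 to 46536051, plus strand), the main long-chain acyl-CoA synthetase of muscle, heart and fat, had 93.0 TPM in replicate 2 and 85.3 TPM in replicate 1 (89.1 ± 5.44, SD, n = 2). Acsl6 (ENSMUSG00000020333.17, chromosome 11, 54303798 to 54364756, plus strand), a related enzyme best known from brain, had 11.3 TPM in replicate 2 and 10.5 TPM in replicate 1 (10.9 ± 0.601, SD, n = 2). Acsl1 exceeded Acsl6 by 8.22-fold in replicate 2 and by 8.15-fold in replicate 1, and by 10.8-fold and 10.9-fold in the second quantification. Of the 5 Acsl genes, Acsl1 held 80.5% of the TPM in replicate 2 and 79.0% in replicate 1, and Acsl6 held 9.79% and 9.69%. Acsl4, which prefers arachidonic acid, followed with 6.77% in replicate 2 and 7.27% in replicate 1. Acss1 and Acss2, which activate acetate, had 10.4 and 10.6 TPM in replicate 2, against 9.47 and 13.1 TPM in replicate 1. Acsl6 overlaps the antisense gene Gm12224, which had 819 counts in replicate 2 and 771 in replicate 1.

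Acsl1 and Acsl6 each carry a pair of coding exons of 78 bases, an upstream and a downstream member, which no annotated transcript contains together as separate exons. In the human genes these exons encode alternative forms of the gate that admits the fatty acid to the active site. They are shown because the libraries used them unequally. The sequences are those of the GENCODE M21 transcripts on the plus strand of mm10, with capitals at the 28 positions where all 4 exons hold the same base.
Acsl1 upstream exon, chr8:46521268-46521345: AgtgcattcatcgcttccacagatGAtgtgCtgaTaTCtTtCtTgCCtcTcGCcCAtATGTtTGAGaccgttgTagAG
Acsl1 downstream exon, chr8:46521410-46521487: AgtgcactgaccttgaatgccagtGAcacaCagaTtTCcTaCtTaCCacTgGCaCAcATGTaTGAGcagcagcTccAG
Acsl6 upstream exon, chr11:54336936-54337013: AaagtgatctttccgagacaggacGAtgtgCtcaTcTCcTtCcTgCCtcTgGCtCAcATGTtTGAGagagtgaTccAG
Acsl6 downstream exon, chr11:54337071-54337148: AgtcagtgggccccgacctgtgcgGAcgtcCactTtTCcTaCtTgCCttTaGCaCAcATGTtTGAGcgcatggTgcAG

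The upstream exons of Acsl1 and Acsl6 shared 49 of 78 bases (62.8%), against 42 of 78 (53.8%) between the 2 exons of Acsl1. Of the 28 positions shared by all 4, 21 lie in the last 39 bases. Over the transcripts that carry either Acsl1 exon, the upstream exon held 100% of the TPM in both animals, and 93.1% in replicate 2 and 93.5% in replicate 1 in the second quantification. Acsl1-202, the transcript with the downstream exon, had 0 TPM in the gene table's quantification, and 4.35 TPM in replicate 2 and 4.00 TPM in replicate 1 in the second. In Acsl6 the upstream exon was also the more used. It held 75.5% in replicate 2 and 89.1% in replicate 1, and 81.9% and 92.0% in the same order in the second quantification. Acsl6-201, a complete coding transcript counted for neither exon, is outside these shares. It had 0 TPM in the gene table's quantification, and 0.898 TPM in replicate 2 and 0.406 TPM in replicate 1 in the second. The downstream Acsl6 exon held 24.5% in replicate 2 and 10.9% in replicate 1, from transcripts that sum to 2.37 and 1.09 TPM, so its share rests on few reads.

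Acsl1 is also transcribed from start sites far apart. The most upstream start, at base 46471037, held 79.3% of Acsl1 TPM in replicate 2 and 79.0% in replicate 1. A start 19929 bases downstream, used by Acsl1-203 and by the incomplete Acsl1-205, held 20.2% and 20.5%. The second quantification gave the downstream start more, 34.0% in replicate 2 and 32.4% in replicate 1. It also assigned 18.0 TPM in replicate 2 and 26.4 TPM in replicate 1 to Acsl1-209, a short processed transcript that had 0 TPM in the gene table's quantification. Acsl1-205 is 368 bases long in the annotation, so few reads give it a high TPM. By expected counts the downstream start held 4.93% in replicate 2 and 7.01% in replicate 1, and by the counts of the second quantification 17.4% in replicate 2 and 19.9% in replicate 1.

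The 250 bases before the Acsl1 starts described above are printed because these windows differ in composition, with no link to use tested. They are RefSeq promoter windows on the plus strand of GRCm38.p6, the same assembly as mm10, and both end 1 base before an annotated GENCODE start. Capitals mark GGGCGG, the GC box, and CCAAT, the CCAAT box, searched on both strands, so that CCAAT on the minus strand reads as ATTGG.
Acsl1 upstream start, chr8:46470787-46471036: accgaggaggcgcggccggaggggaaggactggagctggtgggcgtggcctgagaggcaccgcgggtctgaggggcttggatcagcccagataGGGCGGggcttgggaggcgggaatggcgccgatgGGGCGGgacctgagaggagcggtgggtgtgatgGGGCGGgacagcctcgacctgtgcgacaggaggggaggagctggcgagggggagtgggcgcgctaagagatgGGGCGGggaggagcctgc
Acsl1 downstream start, chr8:46490716-46490965: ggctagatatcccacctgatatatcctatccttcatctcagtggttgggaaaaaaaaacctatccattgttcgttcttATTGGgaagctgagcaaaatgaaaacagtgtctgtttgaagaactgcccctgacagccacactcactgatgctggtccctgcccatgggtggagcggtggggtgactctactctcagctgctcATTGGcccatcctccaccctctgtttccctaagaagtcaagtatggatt

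The window of the more used start had 72% G or C and 20 CpG pairs, with 4 GC boxes and no CCAAT box. The window of the less used start had 48.4% G or C and 2 CpG pairs, with 2 CCAAT boxes and no GC box. Over 32851 promoter windows of the same length the medians were 52.4% and 6 CpG pairs; 32.7% held a GC box and 33.8% a CCAAT box. The TATA box, searched as TATAAA and found in 12.4% of all windows, was in neither Acsl1 window. The half-site bound by PPAR and related receptors, searched as AGGTCA on both strands and found in 14% of all windows, was also in neither. RefSeq windows were matched for 6 of the 10 genes. Among the 11 windows of these 6 genes, the half-site was found in that of Cd36 and in 1 of Acsl6. The single Cd36 window lies by its most downstream start.

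Cd36 had 3 start regions, with the most distal one leading. Cd36-203 and Cd36-205, which begin farthest from the coding sequence, held 74.6% of Cd36 TPM in replicate 2 and 71.2% in replicate 1. The start region 39018 bases downstream held 19.3% in replicate 2 and 22.8% in replicate 1. The one 53051 bases downstream held 6.05% and 5.95%, and 6.65% and 8.69% in the second quantification. The order of the 3 was the same in both animals and both quantifications. All 6 Cd36 transcripts are annotated as protein-coding, and the 5 complete ones share a coding length of 1416 bases, so these starts change the leading exons and not that length.

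The start regions of Acsl6 had different shares in the 2 animals. Acsl6-205, from a start 16058 bases downstream of the first, was the highest transcript in both animals, with 5.46 TPM in replicate 2 and 7.37 TPM in replicate 1. The start region it leads held 48.3% of Acsl6 TPM in replicate 2 and 70.5% in replicate 1. The most upstream region held 34.3% in replicate 2 and 24.2% in replicate 1. The second quantification gave the region of Acsl6-205 48.7% in replicate 2 and 62.2% in replicate 1. By expected counts the order turned in replicate 2, where the most upstream region held 49.0% and that of Acsl6-205 42.3%. In replicate 1 they held 36.9% and 58.8% of counts.

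**Figure D2:**
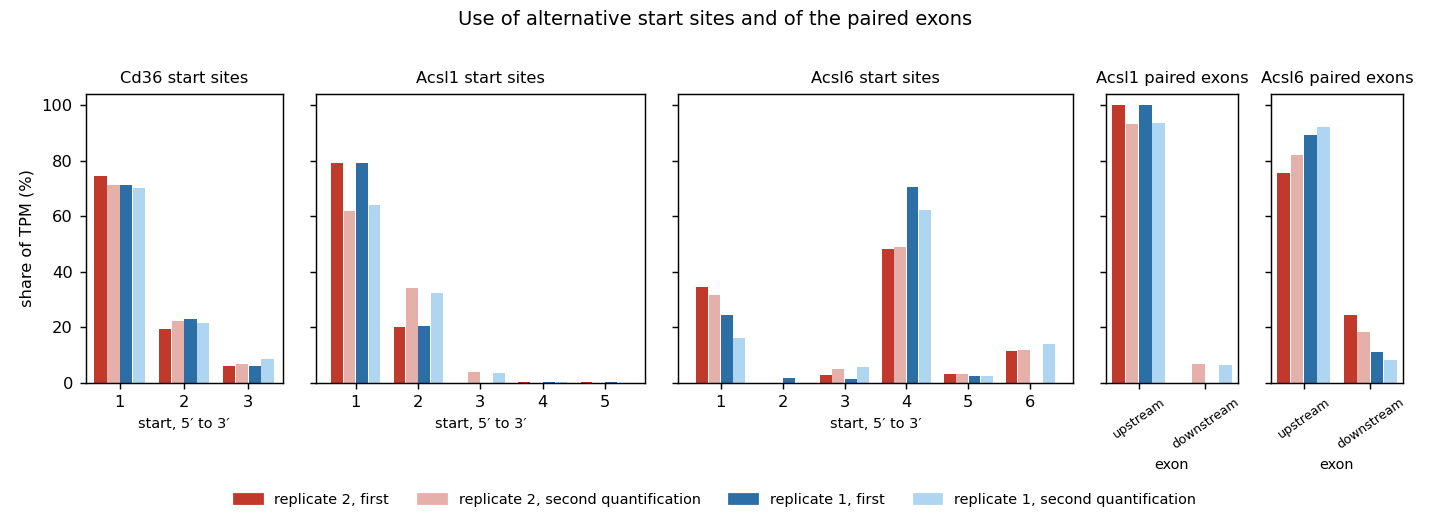
Share of each gene's TPM (%) by start region, numbered from the 5′ end, for Cd36, Acsl1 and Acsl6, and share by member of the paired exons for Acsl1 and Acsl6. Replicate 2 is in red and replicate 1 in blue, with the second quantification in the paler shade and the gene table's quantification in the full colour. The first start leads in Cd36 and Acsl1, and the fourth has the highest TPM share in Acsl6.

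The 10 genes have 60 annotated transcripts, 11 of them incomplete. In 9 of the 10 genes the same transcript was highest in both animals and both quantifications. The exception was Angptl4, where Angptl4-202 led in the gene table's quantification and Angptl4-204 in the second. Fabp3 has a single transcript, and Fabp4-201 held 99.0% of Fabp4 in replicate 2 and 98.6% in replicate 1. Lpl-201 held 72.8% of Lpl TPM in replicate 2 and 73.7% in replicate 1. Most of the rest, 39.1 TPM in replicate 2 and 39.8 TPM in replicate 1, was Lpl-203, annotated for nonsense-mediated decay although its coding sequence is identical to that of Lpl-201. Transcripts with that coding sequence made up 99.4% of Lpl in both animals. Slc27a1 had the lowest protein-coding share of the 9 detected genes, 50.7% in replicate 2 and 57.8% in replicate 1. Slc27a1 transcripts with retained introns held 28.5% in replicate 2 and 26.6% in replicate 1. Which of them was higher differed between the animals: Slc27a1-205 had 4.59 TPM in replicate 2 and 1.44 TPM in replicate 1, and Slc27a1-202 had 3.36 and 6.10 TPM in the same order.

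**Figure D3:**
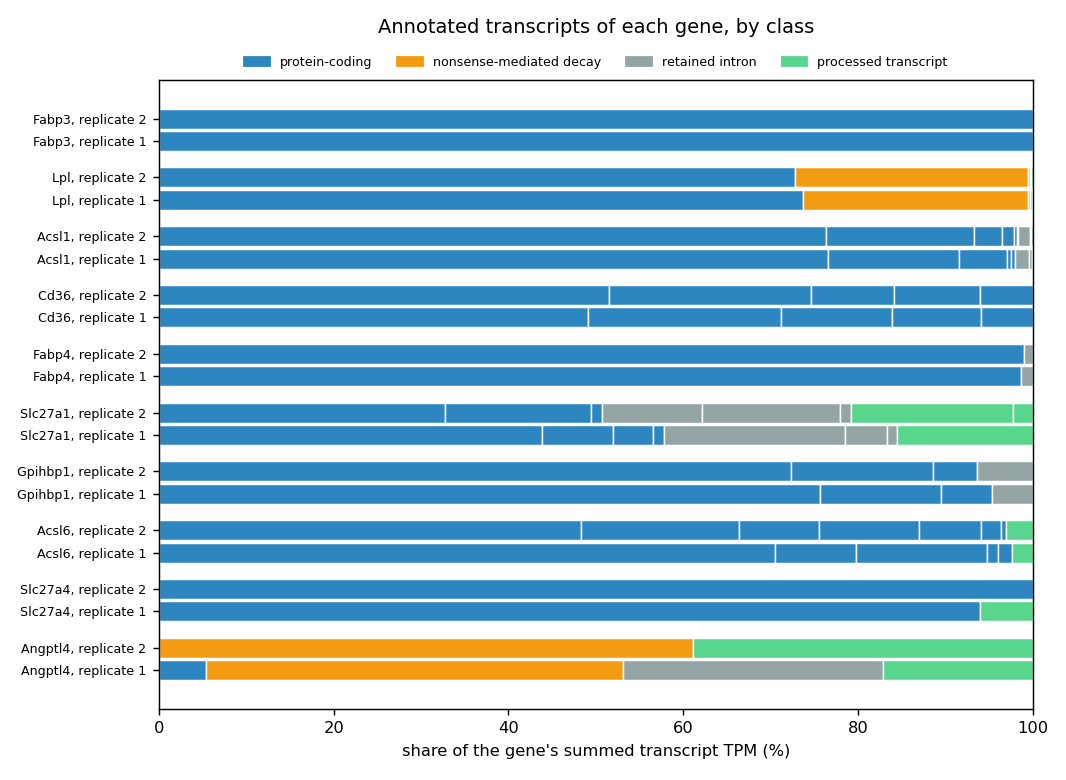
Share of each gene's summed transcript TPM (%) held by its annotated transcripts, with replicate 2 above replicate 1 for each gene and white lines between transcripts. Colours give the annotated class. Fabp3, Fabp4 and Cd36 are protein-coding almost throughout, the orange share of Lpl is Lpl-203, and Slc27a1 and Angptl4 are mixed.

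The animals were next compared by log2 ratios of replicate 2 over replicate 1, from CPM scaled by TMM, so that these ratios do not carry the shift that 7SL RNA gives TPM. A mean of 50 expected counts was needed to enter, and 9 of the 10 genes reached it; Angptl4 did not. None of the 9 differed by 1.5-fold or more, where 5.56% of all 11125 genes with enough counts did. At 2-fold the number was again 0 of 9, and 1.39% of all genes. With 9 genes, 0 is near the background share. The median of the 10 ratios was 0.09, against -0.0024 over all genes tested. Ratios of 6 of the 10 genes were above 0, against 49.4% of all tested genes, so with 10 genes this is near the background.

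Fabp4, Gpihbp1, Slc27a4 and Angptl4 lay below 0, and the other 6 lay above. Acsl1 had 9227 counts in replicate 2 and 7594 in replicate 1, a log2 ratio of 0.26, the highest of the 10. Acsl6 followed at 0.22 and Slc27a1 at 0.20. Fabp3, Lpl and Cd36 lay close together at 0.09, 0.09 and 0.08. Fabp4 was at -0.24, with 1136 counts in replicate 2 and 1320 in replicate 1, and Gpihbp1 at -0.40, with 235 and 306. Slc27a4 was at -0.51, with 286 counts in replicate 2 and 401 in replicate 1, and 7.78% of all tested genes had a larger ratio in either direction. Its ratio of scaled counts was 0.702 with a 95% interval of 0.601 to 0.819, which covers counting error only. Angptl4 was at -2.17; its ratio of scaled counts was 0.181, with an interval of 0.0683 to 0.411 on 7 and 38 counts. Scaling to the ERCC spike-ins moved the median of all genes to -0.12. Under it Fabp3, Lpl and Cd36 turned to -0.03, -0.03 and -0.04. Slc27a4 then passed 1.5-fold at -0.63, as 7.32% of all tested genes did with this scaling. Spike-in scaling shifts the ratios of all genes almost equally. That the same 6 stayed above the median of all genes and the same 4 below follows from this.

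**Figure D4:**
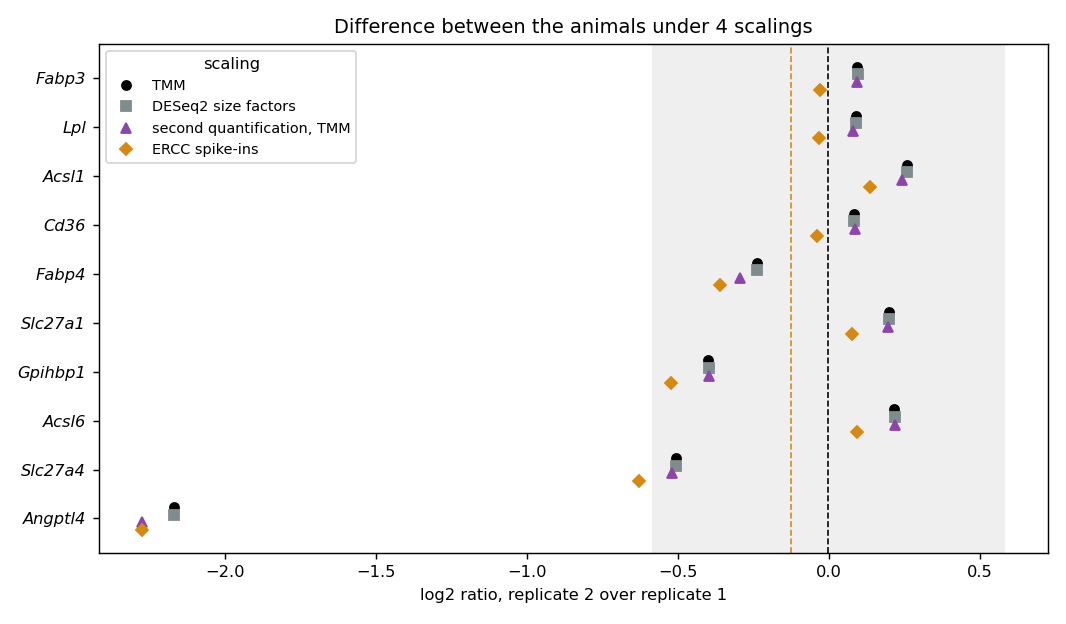
Log2 ratio of replicate 2 over replicate 1 for each of the 10 genes under TMM, DESeq2 size factors, the second quantification with TMM, and ERCC spike-in scaling. Dashed lines are the medians over all tested genes, black for TMM and orange for the spike-ins, and the grey band spans less than 1.5-fold. The 6 genes Fabp3, Lpl, Acsl1, Cd36, Slc27a1 and Acsl6 lie right of the dashed line of the same colour. Fabp4, Gpihbp1, Slc27a4 and Angptl4 lie left of it. Spike-in scaling moves points and line almost equally, so these sides could not change with it.

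Marker genes of other cell types were read on the same scale, on which 49.4% of all tested genes were above 0. Of all tested genes 5.56% passed 1.5-fold. The 12 endothelial genes had a median ratio of -0.24, that of Fabp4; 11 of them were below 0 and none passed 1.5-fold. The 3 adipocyte genes with enough counts had a median of -0.27, and 2 of them were below 0, while Cfd was at 0.11. All 7 fibroblast genes were below 0, with a median of -0.26. The endothelial, adipocyte and fibroblast medians, and a median of -0.25 for erythroid genes, were all near the ratio of Fabp4. The 8 Schwann cell genes summed to 12.7 TPM in replicate 2 and 57.3 TPM in replicate 1, and all 5 with enough counts passed 1.5-fold, with a median of -2.11. All 8 slow fibre genes were above 0, with a median of 0.29, near Acsl1. The 10 fast fibre genes had a median of -0.02. The part of these cell types in the ratios of the 10 genes was not tested. Among genes of the pathway outside the 10, Fabp5 stood at 0.68, past 1.5-fold. Of the 7 genes of Cd36 placing and caveolae, Cav2 at -0.62 and Fyn at -0.70 also passed it. Spike-in scaling lowered the medians of endothelial, slow fibre and fast fibre genes to -0.36, 0.17 and -0.14.

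Acyl-CoA made by activation next enters the mitochondria. Of 9 genes of this step, 8 had enough counts and none passed 1.5-fold, which is near the 5.56% of all genes. Their median ratio was 0.03 with TMM and -0.09 with spike-in scaling. Cpt1b, the muscle form of the enzyme that makes acylcarnitine from acyl-CoA, had 94.9 TPM in replicate 2 and 108 TPM in replicate 1. Acacb, whose product malonyl-CoA inhibits that enzyme, had 79.1 TPM in replicate 2 and 81.4 TPM in replicate 1. Crat, which handles short acyl groups, had 160 TPM in replicate 2 and 176 TPM in replicate 1. Of 6 genes that bind or split acyl-CoA, 5 had enough counts and none passed 1.5-fold, again near that share; Acot13, a thioesterase, had 56.7 TPM in replicate 2 and 59.3 TPM in replicate 1, and Dbi, the acyl-CoA binding protein, had 48.3 and 50.5 TPM.

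Genes that respond to fasting and PPAR divided. Pdk4, the kinase that turns muscle from glucose to fatty acids, had 174 TPM in replicate 2 and 403 TPM in replicate 1, a log2 ratio of -1.07. Ucp3, the muscle uncoupling protein, had 36.7 TPM in replicate 2 and 105 TPM in replicate 1, a ratio of -1.38. Hadha and Acadvl, enzymes of beta oxidation, had ratios of 0.09 and 0.08, and the median of the 7 tested genes was 0.08 with TMM and -0.04 with spike-in scaling; of the 7, Pdk4 and Ucp3 passed 1.5-fold. Of 13 regulators 12 had enough counts and 3 passed 1.5-fold. Over all tested genes the share past it was 5.56%. Foxo1 stood at -0.93 and Ppara, the fatty acid receptor of this pathway, at -0.90. Ppara had 431 counts in replicate 2 and 796 in replicate 1. Ppargc1b, a coactivator of oxidative genes, stood at 1.02, with 686 counts in replicate 2 and 333 in replicate 1. Angptl4, itself a PPAR target, was also lower in replicate 2, but with 7 counts there and 38 in replicate 1 it was below the count minimum. Lpl, Cd36, Fabp3 and Acsl1, also known as PPAR targets, differed by at most 1.20-fold between the animals. Whether PPAR or fasting has a part in any of these differences was not tested.

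**Figure D5:**
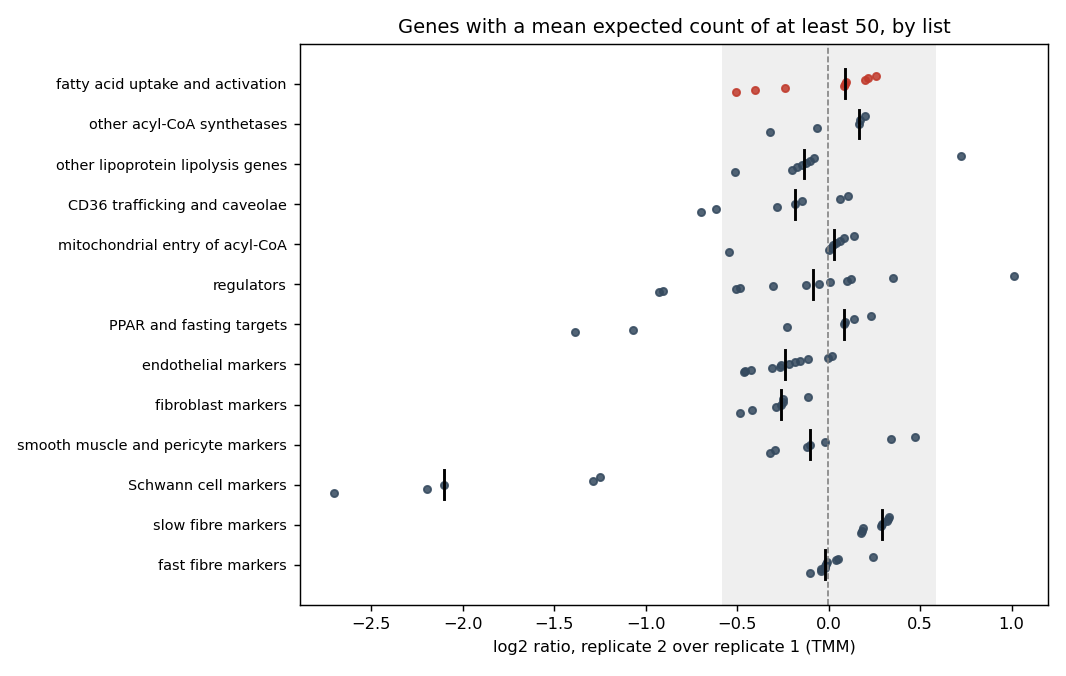
Log2 ratio of replicate 2 over replicate 1 by list, for genes that averaged 50 expected counts or more, with the 9 genes of fatty acid uptake and activation in red at the top. Vertical bars are list medians, the dashed line is the median of all tested genes and the grey band spans less than 1.5-fold. Schwann cell genes lie far to the left, and Pdk4 and Ucp3 are the leftmost points among fasting targets.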

How the data were processed

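Per the labels, 300 ng of total RNA from each of 2 gastrocnemius samples was depleted of ribosomal RNA, spiked with ERCC standards and made into a directional library. For each library the authors deposited 3 tables: genes and transcripts in the layout of RSEM, and transcripts in the layout of kallisto, here the second quantification. The deposited descriptions name mm10 and GENCODE M21; which programs and versions made the tables is not given in the sources used here. Expected counts, as deposited, are reads estimated for each feature without normalization. TPM, as deposited, are these counts over effective length, scaled to a fixed library total. Percent values, as the authors deposited them, state how much of a gene each transcript holds; shares printed here were recomputed from TPM. The deposited credibility bounds of TPM, a signal per gene that is never negative, and the posterior values were read as the authors made them.

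Gene values of the second quantification are sums over transcripts. Rounded expected counts were scaled by TMM in edgeR 4.0.16 (R 4.3.3), and log2 ratios of CPM used a prior count of 2. A share or ratio in the text is of TPM unless counts are named. Ratios were read for genes averaging 50 expected counts or more, and 1 TPM in both animals counted as detected. With 1 group of 2 animals no test was made; differences are described at 1.5-fold and 2-fold beside the share of all genes past them. Counting intervals are exact binomial (95%) on rounded counts. Starts within 1000 bases of each other were taken as a start region. The common biological coefficient of variation was 0.124, and the libraries differed beyond counting error (chi-square over its degrees of freedom 29.2). The ratio step was tested on simulated data. The 10 genes and all 21 lists were chosen with earlier results of these data known. All 10 genes are named; in other lists, genes among the 4 highest by mean TPM or past 1.5-fold with enough counts are named as needed, and genes with no count, Lmf1, Pmp2, Slc27a3 and Slc27a6, Adipoq, Alb and Nppa were named with their values seen. Some listed genes are not reported here. Alternatives were DESeq2 1.42.0 size factors, ERCC scaling, a prior count of 0.5, other count minimums and TPM thresholds, the second quantification, posterior mean TPM, each animal left out, and TPM rescaled to nuclear protein-coding genes. Python 3.11.15, pandas 2.3.3, NumPy 2.4.6, SciPy 1.17.1 and matplotlib 3.10.9 were used. Promoter windows were credited to RefSeq. Reads were not split by parental allele here.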

Additional observations from a re-analysis of the deposited data

How the results depend on the processing

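No paired analysis was possible because both animals belong to a single group. Of 45 alternatives to the 9 summary results, 38 kept the value. Kept means within the spread between the animals, within the counting interval of a ratio or within 1.5 times a count. The 38 include leaving out an animal for the sum and the ratios of TPM. With 2 animals that value always falls within the spread, so it says nothing on stability. Changed count minimums are also among the 38. The median ratio and the numbers past 1.5-fold and 2-fold were read over all 10 genes at every minimum. A changed minimum therefore altered only the scaling and could not add or drop a gene. With the second quantification the summed TPM was 644, Fabp3 over Fabp4 was 6.15 and Acsl1 over Acsl6 was 10.9; with posterior mean TPM the last was 7.50. Rescaled over nuclear protein-coding genes the sum was 1496, since the scale itself changes. With spike-in scaling the median log2 ratio was -0.036. Under it 2 genes of the 10, Slc27a4 and Angptl4, passed 1.5-fold, against Angptl4 alone with TMM. Angptl4 is below the count minimum. Of all tested genes 7.32% passed 1.5-fold with spike-in scaling and 5.56% with TMM. Leaving out an animal gave sums of 664 to 703 TPM, Fabp3 over Fabp4 of 4.62 to 5.74, Slc27a1 over Slc27a4 of 7.75 to 13.0, Acsl1 over Acsl6 of 8.15 to 8.22, and 9 to 10 detected genes. No single gene past 1.5-fold changed direction. With no count minimum 27.4% of 22025 genes passed 1.5-fold, against 5.56% at a minimum of 50. Of 50 alternatives to the levels of single genes, 15 fell outside the SD between the animals, rescaling among them. With the second quantification the mean levels of Lpl, Acsl1, Cd36 and Slc27a1 did so, at 123, 112, 76.2 and 22.3 TPM. Those of Fabp3, Fabp4, Gpihbp1, Acsl6, Slc27a4 and Angptl4 stayed within it. Depth limits Angptl4 and the Acsl6 transcripts. For the other values the limit is 2 animals and, for levels, also the choice of quantification.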
